A study of Rattus norvegicus with 9 samples.

Results

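The small RNA molecules described here were the unannotated sequences of 35 to 55 nts in the rat left ventricle, that is, reads that had not been assigned to any microRNA (miRNA) and were longer than a miRNA. They were chosen by length alone from the deposited table of unannotated sequences, which lists each different sequence with its raw read count in 9 libraries. The choice took 2753 of 13317 unannotated sequences (20.7%) and 1086230 of 5794217 unannotated reads (18.7%). The libraries came from the left ventricular free wall of 3 male Sprague-Dawley rats of 8 months, numbered hearts 6, 7 and 8. Each wall was cut at about 1 mm from its surfaces into epicardium, mid-myocardium and endocardium, so each layer was sequenced once in each heart. No animal was treated or genetically altered, and the layers are mixed tissue in which fewer cells of a type and less RNA per cell cannot be told apart. Levels are given as CPM, the reads of a sequence per 1000000 unannotated reads of its library, and those of annotated miRNAs as RPM, on 1000000 annotated reads.

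A TruSeq small RNA library holds any RNA fragment with ends that the adapters can join, and not only miRNAs. In most tissues the longer inserts include pieces of ribosomal RNA (rRNA), the RNA core of the ribosome, and of transfer RNA (tRNA), the adaptor that brings amino acids to it. They also include small nucleolar RNAs, which guide the chemical modification of rRNA. Cleavage of a tRNA in its anticodon loop leaves a 5′ fragment and a 3′ fragment, and the 3′ end of a mature tRNA carries the letters CCA, added after transcription. Box C/D small nucleolar RNAs hold the C box TGATGA near the 5′ end and the D box CTGA near the 3′ end.

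The sequences were ranked by mean CPM over the 9 libraries and named R1, R2 and so on. Sequences that shared at least 20 identical consecutive bases were joined into 326 overlap families, of which 129 held a single sequence. The 4 families with the most reads held 67.2% of the reads in 599 sequences, and the first 12 held 79.9%. The most abundant sequence of 11 of these families is printed to show what the reads of this length were, with its first 12 bases in capitals.
R4, family 1: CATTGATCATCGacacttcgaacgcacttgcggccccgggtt
R1, family 2: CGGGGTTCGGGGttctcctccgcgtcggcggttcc
R2, family 3: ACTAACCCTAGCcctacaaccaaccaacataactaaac
R5, family 4: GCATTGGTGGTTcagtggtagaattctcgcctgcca
R44, family 5: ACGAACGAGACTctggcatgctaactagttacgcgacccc
R23, family 6: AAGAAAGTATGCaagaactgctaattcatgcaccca
R46, family 7: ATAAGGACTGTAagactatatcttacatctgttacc
R47, family 9: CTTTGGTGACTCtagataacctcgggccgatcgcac
R24, family 10: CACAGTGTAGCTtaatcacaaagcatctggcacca
R38, family 11: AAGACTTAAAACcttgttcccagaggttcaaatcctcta
R35, family 12: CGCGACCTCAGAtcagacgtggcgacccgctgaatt

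Sources of some families could be recognised from general knowledge, after their counts had been seen and with no reference for these RNAs at hand. R4 has the letters of the 3′ part of 5.8S rRNA, a small rRNA of the large ribosomal subunit. R5 has those of the 5′ part of a glycine tRNA, R44 and R47 those of 18S rRNA of the small subunit, and R35 those of the 5′ end of 28S rRNA. The other families of the list are left without a source.

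The families differed in how sharply their 5′ ends were set. In family 3, 99.6% of the reads began with the same 12 bases, in family 6 it was 98.6%, in family 12 it was 96.2%, and in family 10 it was 93.0%. In contrast, the leading start held 34.3% of the reads of family 1, where 11 starts held over 1% each, and 25.2% of family 5. The 3′ ends were more spread than the 5′ ends in families 3 and 6. In family 3 the leading end held 36.4% of the reads and 11 ends held over 1% each, and in family 6 the leading end held 45%.

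Unannotated reads per library ran from 153988 in mid-myocardium of heart 6 to 1379536 in endocardium of heart 7. The smallest level that 3 reads can show was accordingly 19.5 CPM in the former and 2.17 CPM in the latter. Of the 2753 sequences, 61.5% had a read in mid-myocardium of heart 6, against 82.6% to 99.7% in the other libraries, and 1341 had a read in all 9. The median sequence had 58 reads over the 9 libraries, whereas R1 had 120456. The first 20 sequences held 51.0% of the reads. Copies made by PCR were not told apart, so the intervals and floors given here reflect the error of counting reads and no other.

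The length of 35 nts was the most common. It held 23.4% of the reads, against 11.4% at 36 nts, 6.10% at 37 nts, 10.9% at 38 nts, 11.7% at 39 nts and 7.24% at 42 nts. At the edges of the range, 451 sequences of 34 nts just below it had 266824 reads, 408 sequences of 35 nts had 254314, and 7 sequences of 55 nts had 596 reads, with none listed at 56 or 57 nts. The share of 42 nts, the length of R4, was 8.53% ± 1.16 (SD, n = 3) in endocardium, 6.23% ± 0.654 in epicardium and 5.54% ± 1.36 in mid-myocardium. The mean read length was 40.62, 39.16 and 39.92 nts in endocardium of hearts 6, 7 and 8, against 39.51, 38.05 and 38.45 nts in epicardium. Within every heart endocardium had the longer mean, but the layers overlapped between hearts.

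**Figure D1:**
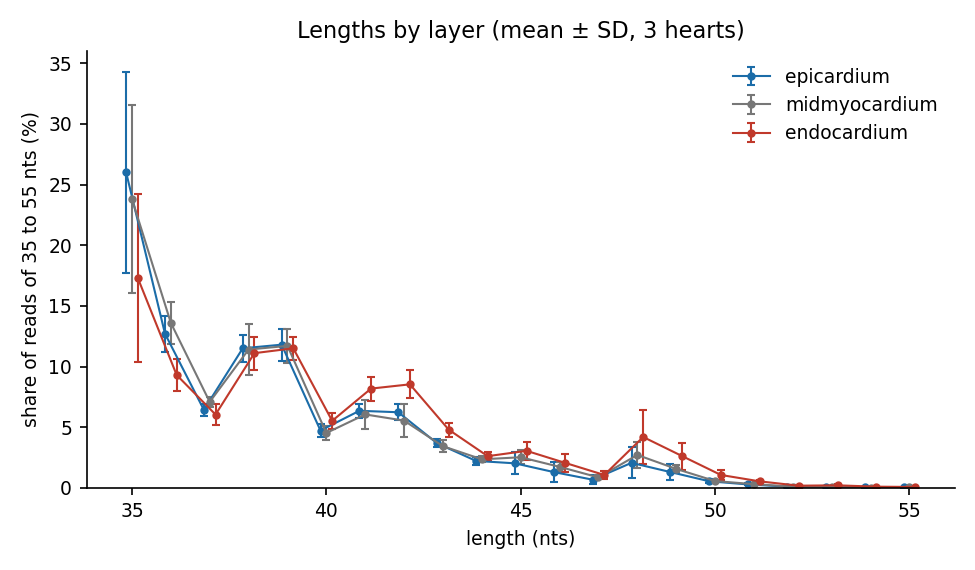
Share of the reads of 35 to 55 nts (%, vertical axis) at each length in nts (horizontal axis), as the mean ± SD of 3 hearts for each layer. Length 35 is the highest in every layer, and the endocardial mean lies above the other layers at 42 nts (8.53% against 6.23% in epicardium and 5.54% in mid-myocardium).

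Sequences of 35 to 55 nts took a larger share of the unannotated reads in endocardium than in epicardium. The share was 14.6%, 14.1% and 15.9% in epicardium of hearts 6, 7 and 8, a mean of 14.9% ± 0.961 (SD, n = 3). In mid-myocardium it was 12.1%, 18.3% and 17.0% (15.8% ± 3.24), and in endocardium 19.4%, 26.1% and 18.6% (21.4% ± 4.10). Every endocardial library was above every epicardial and mid-myocardial one, whereas mid-myocardium had the lowest library of all and overlapped epicardium. The 95% Wilson interval of a single library's share was narrow, at 12% to 12.3% in the shallowest library and 26.0% to 26.1% in the deepest.

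The endocardial mean exceeded the epicardial one by 6.48 percentage points (exact two-sided permutation test, p = 0.1) and the mid-myocardial one by 5.56 points (exact permutation p = 0.1). Mid-myocardium and epicardium differed by 0.919 points (exact permutation p = 0.700), a difference that became -0.310 points without mid-myocardium of heart 7. With 3 libraries against 3 the test cannot give a p below 0.1, so no difference of this kind can pass 0.05. Without endocardium of heart 7, the library with the most reads and the highest share, the excess of endocardium over epicardium was 4.12 points. As a share of annotated and unannotated reads together, the sequences took 9.26% ± 3.08 in endocardium and 6.35% ± 0.413 in epicardium, a difference of 2.90 points. On that scale endocardium exceeded mid-myocardium by 2.99 points (exact permutation p = 0.300) and the layers overlapped. Mid-myocardium of heart 8 was at 7.84%, above endocardium of hearts 6 and 8 at 7.67% and 7.29%. Endocardium against epicardium on the number of different sequences rather than on reads gave 0.351 points.

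**Figure D2:**
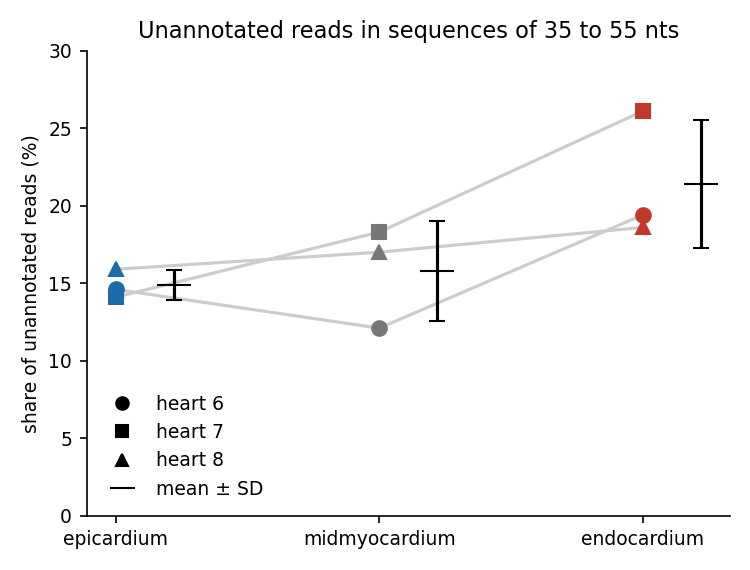
Share of each library's unannotated reads in sequences of 35 to 55 nts (%, vertical axis) in the 3 layers, with marker shapes for hearts, grey lines joining the layers of 1 heart, and black bars for the mean ± SD of 3 libraries. The 3 endocardial libraries lie between 18.6% and 26.1%, above all epicardial (14.1% to 15.9%) and mid-myocardial (12.1% to 18.3%) ones.

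Sequence by sequence, none passed the threshold between layers. Of all unannotated sequences, 5748 had enough reads to be tested by edgeR's quasi-likelihood test, and 1002 of the 2753 sequences of 35 to 55 nts (36.4%) were among them. After Benjamini-Hochberg adjustment over all those tested, 0 were called at 0.05 in endocardium against epicardium, in mid-myocardium against epicardium and in endocardium against mid-myocardium, and 0 of all sequences (0%) were called in each. DESeq2 also called 0 in each. In endocardium against mid-myocardium it gave no adjusted p for R406, R245 and R553, described below, and so could not call them. Their unadjusted p by DESeq2 was 1.05e-05, 1.49e-04 and 2.58e-04. At an unadjusted p under 0.05, 65 of the 1002 (6.49%) passed between endocardium and epicardium, 64 of them higher in endocardium, beside 235 of all 5748 (4.09%). Between mid-myocardium and epicardium 10 passed (0.998%, beside 0.748% of all), and between endocardium and mid-myocardium 56 passed (5.59%, beside 6.26% of all), 45 of these higher in endocardium. With DESeq2 the counts at an unadjusted p under 0.05 were 96, 9 and 113, beside 241, 56 and 365 of all 5748. With the heart as replicate block in edgeR they were 95, 29 and 86 of the 1002, beside 527, 134 and 692 of all 5748. With that block the share of the 1002 was close to that of all between endocardium and epicardium. It was below that of all between endocardium and mid-myocardium. A biological coefficient of variation of 56.7% between libraries of a layer stood behind these tests, so a count of 0 does not show that levels were alike.

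On the unannotated total, levels of these sequences and of the whole table moved apart. The median log2 fold change of endocardium over epicardium was 0.42 for the 1002 and -0.12 for all 5748, and 757 of the 1002 were above 0. For mid-myocardium over epicardium the medians were 0.22 and 0.15, and for endocardium over mid-myocardium 0.21 and -0.28. TMM normalization moved the median of all sequences to 0.00, 0.01 and -0.01 in these comparisons and that of the 1002 to 0.54, 0.08 and 0.48. The main fit scales to the unannotated total, so its fold changes include the difference in share given above. Scaled to the reads of the 35 to 55 nt sequences instead, the medians were -0.06, 0.12 and -0.17 over 923 sequences. Of these, 24, 6 and 66 had an edgeR unadjusted p under 0.05.

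Counted without a test, 291 of the 2753 sequences (10.6%) had all 3 endocardial libraries above all 3 epicardial ones, beside 3.78% of all unannotated sequences. In the other direction it was 32 (1.16%), beside 6.07% of all. For endocardium over mid-myocardium 257 sequences (9.34%) did so, beside 3.84% of all, and 67 (2.43%) were below, beside 7.79%. Mid-myocardium was above epicardium without overlap for 123 sequences (4.47%), beside 3.48% of all, and below for 81, beside 2.99%. Among sequences with a mean over 100 CPM, endocardium stood above epicardium without overlap for 44 of 180 of the longer ones and for 15 of 834 of the shorter. By family, 27 of 326 (8.28%) had endocardium above epicardium without overlap and 7 (2.15%) below. For endocardium and mid-myocardium it was 24 (7.36%) above and 6 (1.84%) below, and for mid-myocardium and epicardium 8 (2.45%) above and 6 (1.84%) below. Families were built only from the longer sequences, so no share over the whole table stands beside these counts.

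Family 1, with 182 sequences and 21.0% of the reads, was the most abundant and stood highest in endocardium. Nearly all of its reads fell into a pair of classes, with 39 sequences (5147 reads) in neither. R4 and R6, the most abundant of each class, overlap at 16 bases, printed in capitals, and each class is shown with an abundant member or with a member named for its small p.
R6, in the class of the 3′ end: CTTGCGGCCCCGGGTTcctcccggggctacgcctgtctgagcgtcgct
R245, in the class of the 3′ end: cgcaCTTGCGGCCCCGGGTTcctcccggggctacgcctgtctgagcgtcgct
R553, in the class of R4: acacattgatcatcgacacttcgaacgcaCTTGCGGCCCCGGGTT
Summed over the family, the level was 29632, 18146 and 27425 CPM in epicardium of hearts 6, 7 and 8. It was 26892, 31582 and 16925 CPM in mid-myocardium and 62582, 65079 and 51915 CPM in endocardium. The lowest endocardial library was above the highest of the other layers. The endocardial mean was 2.39 times the epicardial and 2.38 times the mid-myocardial mean, and the epicardial (25068 CPM ± 6095, SD, n = 3) and mid-myocardial (25133 ± 7485) means differed by less than the spread between hearts. Within the longer sequences, family 1 took 32.3%, 25% and 27.9% of the reads in endocardium, 20.3%, 12.9% and 17.2% in epicardium, and 22.2%, 17.3% and 9.95% in mid-myocardium.

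Of the 63 sequences of family 1 that were tested, 62 had a log2 fold change above 0 in endocardium against epicardium, with a median of 1.25, and 29 had an unadjusted p under 0.05. They overlap in sequence and share their libraries, so they are not separate observations. R4 was at 8649.5, 13672 and 6537 CPM in endocardium and at 3864, 3505 and 5346 CPM in epicardium, without overlap (log2 fold change 1.18 ± 0.58, SE, edgeR adjusted p = 0.948). R6 was at 8452, 3719 and 10668 CPM in endocardium and at 4659.9, 1299 and 2205 CPM in epicardium, where heart 7 of the former lay below heart 6 of the latter (1.48 ± 0.64, adjusted p = 0.948). R245, which begins 4 bases before R6, was at 206, 136 and 81.6 CPM in endocardium against 47.3, 14.2 and 27.6 in epicardium, without overlap (2.23 ± 0.63, adjusted p = 0.948). R553 was at 47.3, 52.9 and 55.1 CPM in endocardium against 6.49, 13.8 and 8.90 in mid-myocardium, without overlap (2.33 ± 0.62, edgeR adjusted p = 0.698).

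The class of R4, 121 sequences with 152715 reads, had an endocardial mean 2.19 times the epicardial one, without overlap. The class with the 3′ end of R6, 22 sequences with 69991 reads, had a ratio of 2.83, but its lowest endocardial library (heart 7, 11980.1 CPM) was under its highest epicardial one (heart 6, 13331 CPM). Heart 7 was thus the highest endocardial library for the first class, at 51889.9 CPM, and the lowest for the second.

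The excess of family 1 was not seen in its shortest fragments. The table held 143 sequences of 15 to 34 nts that lie wholly within a sequence of family 1, with 811799 reads. Their endocardial mean was 0.963 times the epicardial one. By length the ratio was 0.916 at 15 to 19 nts, 1.17 at 20 to 24 nts and 1.84 at 25 to 34 nts, against 2.39 at 35 to 55 nts, and in the 3 shorter classes the layers overlapped. The reads of 35 to 55 nts were 22.3%, 49.1% and 25.6% of all reads of this stretch in endocardium, 12.4%, 9.91% and 25.9% in epicardium, and 9.67%, 12.4% and 12.2% in mid-myocardium. Endocardium of heart 7 stood apart with 49.1%, and endocardium overlapped epicardium but not mid-myocardium.

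**Figure D3:**
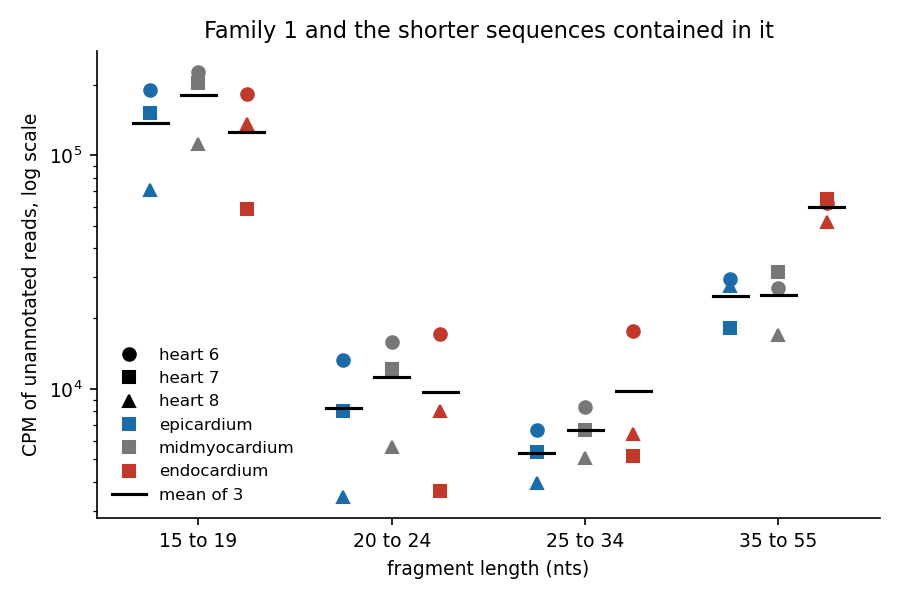
Summed level (CPM of unannotated reads, log scale, vertical axis) of family 1 at 35 to 55 nts and of the shorter sequences contained in it, by fragment length in nts (horizontal axis), with a point for each library, marker shapes for hearts and a black line for the mean of 3. At 35 to 55 nts the endocardial points (51915 to 65079 CPM) lie above all others, whereas at 15 to 19 nts the layers overlap.

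The red cell list (miR-451, miR-144 and miR-486) was summed beside these values, and miR-486, which is also abundant in muscle, made up nearly all of the sum. The sum was 148707 to 228889 RPM on the annotated reads in endocardium, 111952 to 162812 in epicardium and 93801 to 137308 in mid-myocardium. The highest sum was in endocardium of heart 7, where miR-486 was at 228287 RPM. The other members did not follow, since miR-451 was at 732, 511 and 764 RPM in endocardium against 487, 960.3 and 377 RPM in epicardium, and miR-144 at 40.8, 91.0 and 134 RPM against 46.8, 97.3 and 82.6 RPM. The 5 cardiomyocyte miRNAs (miR-1, miR-133a, miR-133b, miR-208 and miR-499) ran from 63027 to 105605 in endocardium, 55210.0 to 109043 in epicardium and 107856 to 144699 in mid-myocardium. Endothelial miR-126, the smooth muscle pair miR-143 and miR-145, and the leukocyte miRNAs miR-142, miR-223 and miR-150 overlapped between endocardium and epicardium, and none of the markers was at 0 in any library. The part of red cell content in the layer differences was not tested.

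Family 3 also stood higher in endocardium, by a smaller factor. Its 74 sequences were at 23958, 18261 and 29261 CPM in epicardium, 22326, 31247 and 15275 CPM in mid-myocardium, and 42908, 43169.6 and 27266 CPM in endocardium. The endocardial mean was 1.59 times the epicardial one, but endocardium of heart 8 lay below epicardium of the same heart. Of 31 sequences tested, 30 were above 0 in endocardium against epicardium, with a median log2 fold change of 0.70. R2 itself was at 16347, 15367 and 9865 CPM in endocardium against 8433, 6563 and 11405 in epicardium (0.66 ± 0.56, SE, edgeR adjusted p = 0.948). Here the balance of long and short fragments set endocardium above both other layers without overlap. Of all reads of the stretch, those of 35 to 55 nts were 58.5%, 60.6% and 60.7% in endocardium, 51.4%, 36.7% and 47.3% in epicardium, and 44.2%, 51.6% and 48.1% in mid-myocardium. The shorter fragments of 20 to 24 nts had an endocardial mean 0.837 times the epicardial one.

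Family 13 has the letters of 5S rRNA, the other small rRNA of the large subunit, by the same general knowledge. It gave R406 and R414, which have among the smallest unadjusted p of the layer comparisons, and R117 is its most abundant sequence. The stretch that all of them hold is in capitals.
R117: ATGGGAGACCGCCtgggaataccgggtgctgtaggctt
R406: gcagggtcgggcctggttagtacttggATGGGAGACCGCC
R414: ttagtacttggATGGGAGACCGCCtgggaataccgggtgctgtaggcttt
The 51 sequences of the family summed to 1566, 910.5 and 968 CPM in epicardium, 974, 1748 and 2334 CPM in mid-myocardium and 3679.9, 2536 and 1445 CPM in endocardium. The endocardial mean was 2.22 times the epicardial one, although endocardium of heart 8 lay below epicardium of heart 6. All 33 sequences tested had a log2 fold change above 0, with a median of 1.31, and 13 had an unadjusted p under 0.05. As in the other families, they overlap in sequence and share their libraries, so they are not separate observations. The family was singled out after these values were seen, so the counts are no separate support for it. R406 was at 109.6, 141 and 20.4 CPM in endocardium and at 11.1, 7.10 and 17.4 CPM in epicardium (2.90 ± 0.76, SE, edgeR unadjusted p = 0.00134, adjusted p = 0.948). In mid-myocardium R406 had 0, 9.19 and 8.90 CPM, where 0 in heart 6 allows up to 19.5 CPM. The endocardial libraries of R406 were all above the other layers, with heart 8 close to them. R414 was at 129, 47.1 and 40.8 CPM in endocardium against 18.1, 12.4 and 14.5 CPM in epicardium, without overlap (2.24 ± 0.66, adjusted p = 0.948).

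Among the other leading families, family 9 stood higher in endocardium than in epicardium without overlap, at 3392, 3630.2 and 2747 CPM against 1719, 2174 and 2401 CPM. All 20 of its tested sequences were above 0, with a median log2 fold change of 0.68. In family 11 it was mid-myocardium that stood above epicardium without overlap, at 2117, 3030.0 and 2621 CPM against 1708, 1901 and 1257 CPM. Its endocardial values (3914, 1891 and 2908 CPM) overlapped both layers.

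Family 4, led by R5, did not follow this order. It joins unlike starts, with 44 sequences that begin as R5 (64240 reads), 49 that begin as R8 (74650 reads) and 63 with other starts. The glycine tRNA was named for R5 only. The 156 sequences of family 4 summed to 23195, 26875 and 20663 CPM in epicardium, 18859, 26255 and 27697 CPM in mid-myocardium and 8999.9, 38401 and 21488 CPM in endocardium. Endocardium held both the lowest and the highest library, and its mean was 0.974 times the epicardial one. By class the ratio was 0.867 for the sequences that begin as R5 and 1.06 for those that begin as R8. R5 was at 1741, 6064 and 3737 CPM in endocardium against 4747, 6276 and 4291 CPM in epicardium (log2 fold change -0.41 ± 0.58, SE, edgeR adjusted p = 0.968). Endocardium of heart 6 was the lowest of the 9 libraries for R5.

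**Figure D4:**
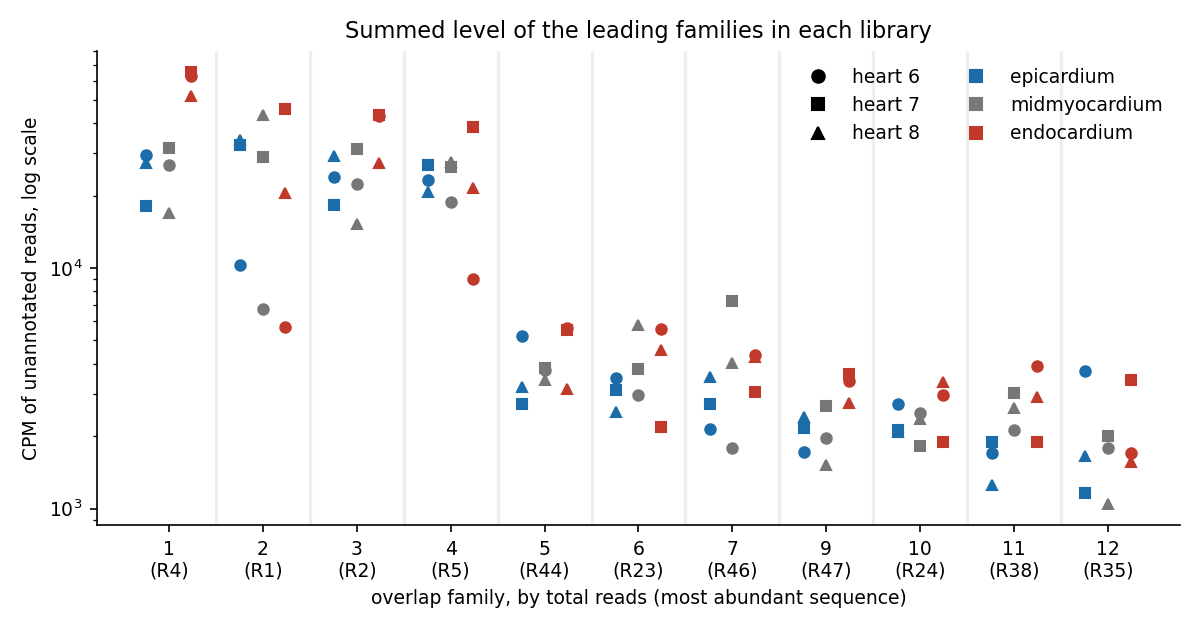
Summed level (CPM of unannotated reads, log scale, vertical axis) of 11 of the 12 families with the most reads (horizontal axis, with their most abundant sequence), 1 point for each library, colours for layers and shapes for hearts. Endocardium lies above the other layers in family 1 (51915 to 65079 CPM), and heart 6 lies lowest in all layers of family 2 (5711 to 10325 CPM).

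Between mid-myocardium and epicardium the smallest unadjusted p belonged to 3 scarce sequences, none of which passed the adjustment (edgeR adjusted p = 1.000 for each). R1149 of family 4, which begins as R8, was at 0, 6.89 and 2.22 CPM in mid-myocardium against 22.2, 14.2 and 21.8 CPM in epicardium. R748 of family 55 was at 45.5, 20.7 and 16.7 CPM against 5.56, 7.10 and 7.27 CPM, and R913 of family 11 at 19.5, 27.6 and 17.8 CPM against 2.78, 8.87 and 4.36 CPM. For R748 and R913 the layers did not overlap, although 19.5 CPM in mid-myocardium of heart 6 is only 3 reads. For R1149, 0 reads in that library allow up to 19.5 CPM, which is above epicardium of heart 7.

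Between hearts, unlike between layers, some sequences passed the threshold. For this comparison the 3 layer libraries of an animal stood as the replicates of its heart. With layer in the model, edgeR's quasi-likelihood test called 36 of the 1002 sequences (3.59%) between hearts at an adjusted p under 0.05, beside 373 of all 5748 (6.49%). At an unadjusted p under 0.05 it was 186 (18.6%), beside 25.3% of all. The share of the longer sequences was therefore below that of the whole table. Of the 36, 28 had their lowest mean in heart 6 and 7 their highest, and 12 belonged to family 2, 6 to family 18 and 4 to family 27. Their median GC content was 74.4%, against 53.3% for the 1002, and 23 of the 36 were among the 204 tested sequences with GC over 70%. The count rested on single libraries. It was 1 without epicardium of heart 6, 3 without mid-myocardium of heart 6, 2 without endocardium of heart 6, 14 without mid-myocardium of heart 8 and 66 without endocardium of heart 8.

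Family 2, led by R1, had 187 sequences and 16.4% of the reads. Its level was 10325, 6767 and 5711 CPM in epicardium, mid-myocardium and endocardium of heart 6. In the same order it was 32387, 28972 and 46031 CPM in heart 7 and 34076, 43296 and 20472 CPM in heart 8. All libraries of heart 6 were below all others, with a heart mean of 7601 CPM against 35797 in heart 7 and 32615 in heart 8. The layers overlapped, with an endocardial mean 0.940 times the epicardial one. R1 alone averaged 4688 CPM ± 1265 (SD, n = 3) in heart 6, 25701 ± 6625 in heart 7 and 20765 ± 7682 in heart 8. Families 18 and 27 were low in heart 6 as well, at 327 and 175 CPM on average, against 1203 and 804 CPM in heart 7 and 1595 and 833 CPM in heart 8. Their GC-rich sequences shared fewer than 20 consecutive bases with family 2. From family 2 the test of hearts also named R489, and from family 18 it named R547. R489 was at 5.56, 0 and 0 CPM in heart 6 and at 31.1 to 56.7 CPM in the other hearts (adjusted p = 0.00655). R547 was at 4.17, 6.49 and 2.15 CPM in heart 6 and at 18.4 to 54.5 CPM in the others (adjusted p = 0.0181). Both calls were lost when any library of heart 6 was left out. Without epicardium, mid-myocardium or endocardium of heart 6 the edgeR adjusted p was 0.106, 0.0580 and 0.206 for R489 and 0.213, 0.129 and 0.206 for R547.

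R1 was surrounded by sequences that differ from it by a single base. There were 41 such neighbours at 30 of its 35 positions, with 7043 reads, or 5.85% of the 120456 reads of R1. Positions are counted from 1 at the 5′ end. The reads were concentrated near the 3′ end, since positions 32 and 33 held 5206 of them (73.9%), whereas at the 28 other positions the median was 49.5 reads and the highest value 399. The most abundant neighbour was R50, which carries T32G relative to R1, in capitals.
R50: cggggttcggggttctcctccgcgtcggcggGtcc
Per 100 reads of R1, the neighbours at positions 32 and 33 had 5.89, 4.05 and 1.25 reads in epicardium, 1.98, 4.26 and 8.32 in mid-myocardium and 4.25, 2.78 and 9.90 in endocardium of hearts 6, 7 and 8. Those at the other positions had 0.990 to 1.92 reads in every library. The former ran from 1.25 to 9.90, and the highest and the lowest of them were both in heart 8. Over all sequences of 35 to 55 nts, 271 (9.84%) had a neighbour at a single base that was at least 10 times as abundant, and these held 2.83% of the reads.

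A set of such single-base forms was seen in heart 8 and in no other heart. R786, R1459 and R1573 had reads in all 3 libraries of heart 8 and in none of the other 6. Each carries T where a far more abundant sequence of family 2 has C, with C32T between R71 and R786, C31T between R136 and R1459, and C33T between R144 and R1573. The 3 start 1 base apart and overlap, so they show the same base. The first pair is printed with that base in capitals.
R71: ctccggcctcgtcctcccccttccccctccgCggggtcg
R786: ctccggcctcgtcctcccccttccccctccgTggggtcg
Over the 3 pairs of sequences, the T form was 10.7% of 541 reads in epicardium of heart 8 (95% Wilson interval 8.39 to 13.6), 10.3% of 1347 in mid-myocardium (8.81 to 12.1) and 13% of 284 in endocardium (9.60 to 17.4). The intervals of the 3 layers overlapped. In the other hearts it was 0 of 37 to 1098 reads, which allows a share of up to 0.273% in endocardium of heart 7, 1.33% and 1.30% in epicardium of hearts 6 and 7, 1.90% in mid-myocardium of heart 7, and 8.11% and 5.26% in mid-myocardium and endocardium of heart 6. On the same Wilson interval, 0 of 37 reads in mid-myocardium of heart 6 has an upper bound of 9.41%, which overlaps the intervals of heart 8. The upper bounds of the other 5 libraries were 0.349% to 6.31%. The pairs were taken because the T form had reads in heart 8 only. The 0 elsewhere was thus fixed by the choice, and these bounds do not test a difference between hearts. R786 passed the comparison of hearts with an edgeR adjusted p of 6.10e-06, the smallest of the longer sequences, and R1573 with 0.00105. Both passed the filter on low counts only through heart 8, where alone they had reads. These p-values are therefore no separate support for the pattern. R786 was not called by DESeq2 (adjusted p = 0.298), and R1573 was not called by edgeR without epicardium of heart 6 (adjusted p = 0.0774). Over all unannotated sequences, 16 had reads in all libraries of heart 8 and no other, 4 did so for heart 6 and 1 for heart 7. For heart 8 this was 0.120% of all, and the 3 sequences here were 0.109% of the 2753, so the pattern was no more common at this length.

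**Figure D5:**
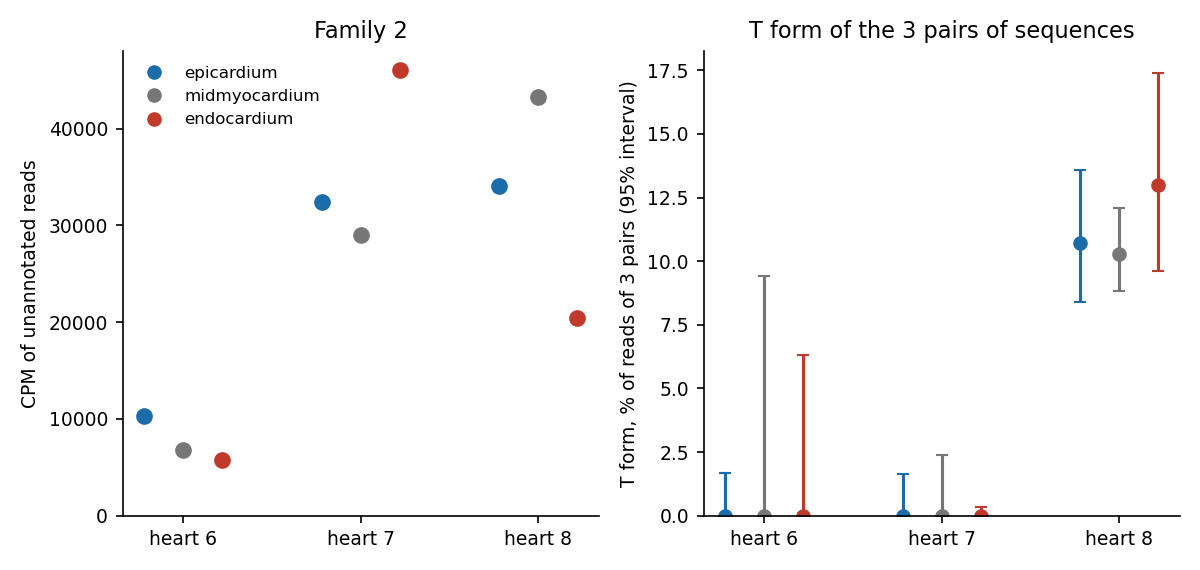
Left, summed level of family 2 (CPM of unannotated reads) in each library by heart. Right, share of reads with T over the 3 pairs of sequences that differ by C or T (%, 95% Wilson interval), which is 10.3% to 13% in heart 8. It is 0 in hearts 6 and 7 by the choice of the pairs.

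A sequence with the letters of the C box and, further on, of the D box had no reads in heart 6. Its CTGA is not near its 3′ end, and whether it is the D box was not tested. R450 of family 92 holds TGATGA at base 7 and CTGA at base 26, in capitals here and in a shorter sequence of 30 nts that lies within it.
R450: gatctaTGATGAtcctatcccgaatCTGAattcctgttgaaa
Shorter sequence: atctaTGATGAtcctatcccgaatCTGAat
R450 had 0 reads in all 3 libraries of heart 6. It had 26, 15 and 67 reads in epicardium, mid-myocardium and endocardium of heart 7 and 66, 6 and 34 in heart 8 (edgeR adjusted p = 0.00105 between hearts). The adjusted p was 0.181 without epicardium of heart 6 and 0.107 without endocardium of heart 6. Of the other members of its family, which differ from it at the ends, R919 had 1 read in epicardium of heart 6 and R1672 had 1 and 3 reads in its mid-myocardium and endocardium. The shorter sequence, in contrast, had 25, 7 and 45 reads in the same layers of heart 6. As levels these were 34.7, 45.5 and 96.7 CPM, against 46.1, 48.2 and 55.8 CPM in heart 7 and 82.9, 48.9 and about 100 CPM in heart 8. In every layer heart 8 was above heart 6, and in endocardium heart 6 was above heart 7. The 0 reads of R450 allow up to 4.17, 19.5 and 6.45 CPM in the layers of heart 6, against 6.67 to 95.9 CPM in the other hearts. In all, 27 of the 2753 sequences (0.981%) had reads in all 6 libraries of hearts 7 and 8 and none in heart 6, beside 104 of all 13317 (0.781%), and none of this length was missing in the same way from heart 7 or heart 8. Heart 6 held the shallowest library, mid-myocardium, where 61.5% of the 2753 had a read, so these counts do not compare hearts at equal depth.

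By motif, 85 sequences (3.09%) held the C box TGATGA, and in 67 of them (2.43%) the D box CTGA followed it. The latter share was 1.25% at 25 to 34 nts, 0.237% at 20 to 24 nts and 0.0363% at 15 to 19 nts. The B box motif GTTCNANNC, in which tRNA genes carry part of their promoter and tRNA its T arm, was in 4.32% of the longer sequences, against 1.05%, 0.339% and 0.0727% in the shorter classes. A longer sequence has more room for any motif, and no share per base was computed. Motifs were searched on the strand of the read, and whether a match is the box itself was not tested.

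The 3′ end CCA was found on 218 sequences (7.92%), against 3.85% at 25 to 34 nts, 6.07% at 20 to 24 nts and 7.38% at 15 to 19 nts. They held 10.7% ± 2.12 (SD, n = 9) of the reads, with 11.0% ± 2.26 in epicardium, 12.2% ± 0.959 in mid-myocardium and 8.88% ± 1.88 in endocardium. On the unannotated reads the order of endocardium and epicardium turned, with 16287 CPM ± 2376 in epicardium, 19224 ± 4213 in mid-myocardium and 18484 ± 1273 in endocardium. For most of these reads a longer sequence of the table went on past the CCA. Such sequences held 71.6% of the reads with this end in 39 sequences, with R5 at their head. A further 40 sequences (9.14% of the reads) had the same bases before the CCA followed by other letters elsewhere. For 139 sequences (19.2% of the reads) neither was found, and R45 was the most abundant of them. The B box was in 21.6% of all sequences with a CCA end and in 2.84% of those without.

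Family 7 showed how the end varied on a single start. Its leading 22 bases began 56 sequences of the table, 43 of them of 35 to 55 nts. Of the reads of these 43 sequences, 62.9% ended in ACC and 21.9% in CCA. The members with CCA at successive lengths, and R45 and R109 as CCA ends of other families, are printed with CCA in capitals.
R154: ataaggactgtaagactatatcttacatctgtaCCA
R191: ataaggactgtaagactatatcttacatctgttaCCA
R255: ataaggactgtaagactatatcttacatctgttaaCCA
R233: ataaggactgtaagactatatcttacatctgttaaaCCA
R45: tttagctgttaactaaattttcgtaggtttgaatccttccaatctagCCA
R109: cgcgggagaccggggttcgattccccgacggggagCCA
R154, R191, R255 and R233 thus carry CCA after stems of growing length, with 630, 520, 360 and 394 reads, where R46 ends in ACC with 2577. By comparison, among sequences of 35 to 55 nts, 95% of the reads that begin as R24 ended in CCA, and 64.7% of those that begin as R23. At this length only 3.84% of the reads that begin as R2 did so.

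In 23 sequences (0.835%, with 0.117% of the reads) the last bases were TGGAAT or TGGAATT, the first letters of the TruSeq 3′ adapter, and for all 23 the remainder without these bases was in the table as a sequence of its own. At 25 to 34 nts this held for 1 of 20 such sequences. With annotated reads, 291 of the 2753 sequences (10.6%) in 21 families shared at least 20 consecutive bases. Family 18 shared them with reads annotated to mouse mir-5115 (74402 reads) and family 4 with reads annotated to pig mir-2476 (4512 reads). None of the 2753 shared 20 bases with any of 419 rat miRNA hairpins from RefSeq.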

How the data were processed

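The authors prepared TruSeq small RNA libraries from miRNeasy extracts and annotated the reads to miRBase with CLC Genomics Workbench. The files list sequences without genome coordinates, and genome positions were not analysed. They deposited raw counts of each unannotated sequence with at least 10 reads over the 9 libraries. They also deposited annotated sequences as RPM on the annotated reads of each library, from which whole reads were recovered for 100.0% of values (within 0.02 reads) and used as totals, for the marker miRNAs and for shared bases. A deposited table of grouped miRNAs was not used, and 0 value columns were left unmapped.

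Groups were the layers and hearts of the sample labels. Sequences of 35 to 55 nts were scaled to the unannotated reads of their library, and families joined sequences by single linkage at 20 shared bases on the same strand. Counts of the whole unannotated table were tested with edgeR's quasi-likelihood test on all 9 libraries, after its filter on low counts, with adjustment over all sequences tested. Single values carry exact permutation tests. Between layers, the main tests treated the libraries as separate and did not use their pairing by heart. A p-value there measures the spread between libraries within layers, where each layer has 1 library from each of 3 animals. Between hearts it measures the spread between libraries of the same animal, since each heart is 1 animal. The members and lists were chosen with earlier results of these data known. Each heart gave all 3 layers, so heart numbers pair the libraries. Deviations from the layer means correlated at 0.301 on average within hearts (0.0907 to 0.573) and at -0.147 between hearts.

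Sequences named are the 20 with the highest mean CPM, the most abundant of the 12 largest families, the 3 with the smallest unadjusted p between layers where none was called, and the 5 with the smallest adjusted p between hearts. Others (R50, R71, R117, R136, R144, R1459, the CCA ends and families 13, 18, 27 and 92) were singled out after their values were seen. Some sequences that the rule names are not reported here. The rule allowed source RNAs to be named only from an exact match to a reference. No rRNA, tRNA or small nucleolar RNA reference was at hand, so the rRNA and tRNA names depart from it, come from general knowledge and were not matched.

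Alternatives covered TMM, DESeq2, library sizes, filters, lengths, the samples in the fit, the heart as block and each library left out. The block without endocardium of heart 7 and the block with TMM were added after the data were seen. The scripts were tested on simulated counts for endocardium against epicardium. The edgeR test recovered 21 of 100 sequences changed 4-fold and 91 of 100 changed 32-fold, with 3 false calls. The 32-fold changes and a looser pass mark were set after a first run with 4-fold changes had recovered few. Versions were R 4.3.3, DESeq2 1.42.0, edgeR 4.0.16, scipy 1.17.1, pandas 2.3.3, matplotlib 3.10.9 and Python 3.11.15.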

Additional observations from a re-analysis of the deposited data

How the results depend on the processing

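Of the comparisons between layers, the mean excess of endocardium over epicardium and over mid-myocardium kept its direction under all alternatives run, with 4.12 to 7.85 and 3.20 to 6.93 points when each library was left out in turn. On annotated plus unannotated reads, however, the libraries of endocardium and mid-myocardium overlapped. The difference between mid-myocardium and epicardium did not, with -0.0899 points on annotated plus unannotated reads, -0.790 on the number of different sequences, and -0.31 to 2.76 with each library left out. Swapping layers within hearts, as a replicate block, gave exact permutation p = 0.25, 0.75 and 0.25 for endocardium against epicardium, mid-myocardium against epicardium and endocardium against mid-myocardium, where 0.25 is the smallest p it can give. Counts of sequences of 35 to 55 nts called between layers were 0 with the heart as replicate block and under every other alternative run, and the block without endocardium of heart 7, chosen after the data were seen, called 10 of all sequences between endocardium and epicardium but 0 of these. The 36 called between hearts became 13 on annotated plus unannotated reads, 64 with no filter, 11 with layer left out of the model, and 1 to 66 with each library left out. The cause was not tested. TMM gave 45 and DESeq2 48. The share by heart differed by up to 4.09 points between heart means (exact permutation p = 0.571). Log2 fold changes of the sequences named for a layer kept their direction throughout. Depth limits mid-myocardium of heart 6 most, where 3 reads are 19.5 CPM.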
